A study of Mus musculus with 8 samples.

Results

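Microglia of the mouse lateral geniculate nucleus (LGN) were compared between 3 days and 1 day after crush of both optic nerves, over every gene that passed a count filter. The comparison used 3 libraries at each time, 6 of the 8 in the series. All mice were wild type C57BL/6J males aged 2 to 3 months. The other 2 libraries came from uninjured mice of the same strain, sex and age, and their values stand beside those of the injured mice. The LGN is the thalamic relay of vision, and the axons of retinal ganglion cells end in it, so the crush lies outside the tissue sampled and the severed fibres reach into it. Cells were taken from the dissociated LGN with magnetic beads that bind CD11b, the product of the integrin gene Itgam, and their RNA was amplified linearly before sequencing. Such beads hold any cell that carries CD11b, so monocytes, neutrophils and border macrophages can come with the microglia. Whether a library is 1 animal or a pool is not stated in the labels, and a p-value here reflects how much these libraries vary, a spread that may be technical.

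Microglia are the resident macrophages of the brain. In undisturbed tissue they scan their surroundings with purinergic, fractalkine and TGF-beta receptors, whose genes are called homeostatic. After damage they pass through an early phase of immediate early transcription factors, NF-kB signalling and cytokines, they can divide, and where axons or myelin break down they can take on a phagocytic, lipid-handling state described in models of neurodegeneration.

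Each library held 12700098 to 15489477 counts at 1 day and 13756487 to 14993580 at 3 days. Counts were found for 18035, 18651 and 20220 genes in the 1 day libraries and for 20745, 21044 and 20632 in the 3 day libraries. Genes of the mitochondrial genome took 13.6, 21.9 and 13.9% of the counts at 1 day and 22.8, 28.9 and 30.3% at 3 days. The uninjured libraries had counts for 22395 and 21663 genes, more than any injured library, with the 1 day libraries lowest. Their mitochondrial shares were 22.5 and 21.3%. Day 1 replicates 1 and 3 lay below both shares and day 1 replicate 2 between them. The 3 day libraries lay above both, day 3 replicate 1 only slightly. Neither measure overlapped between the times, and the exact two-sided permutation test gave p = 0.1 for each, the smallest value that 3 against 3 libraries allow. Without the mitochondrially encoded genes the same fit called 1790 genes, 971 higher and 819 lower; the part of the number of genes detected in the results was not tested. The microglial markers P2ry12 and Tmem119 were present in all 6 libraries, with Tmem119 lowest at 403 CPM (counts scaled to library size by the TMM method) in day 3 replicate 1. On the first principal component, which held 32.6% of the variance, the 3 day libraries lay on the opposite side from the 1 day libraries. Both uninjured libraries lay on the side of the 3 day libraries (−31.0 and −1.46), so this component set the 1 day libraries against all others. On the second, with 17.6%, day 1 replicate 2 stood apart from the rest.

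Of 17390 genes tested, 912 rose from 1 to 3 days (5.24% of those tested) and 1000 fell (5.75%), 1912 in all (11.0%), at an adjusted p under 0.05 in edgeR's quasi-likelihood test. The called rises were larger than the called falls. Among called genes the median log2 fold change was 1.80 for rises, with a median SE of 0.39, and −0.88 for falls, with a median SE of 0.19, beside 0.02 over all genes tested. The genes that rose also had a lower level, with a median of 18.9 CPM over the 2 times against 107.7 CPM for those that fell. With a larger SE a gene needs a larger change to be called. The part of level in this difference was not tested. More than 4-fold changes were seen in 423 of the rises and 74 of the falls, and 65 of the rising genes had no count in any 1 day library. All 3 libraries of 3 days lay above all 3 of 1 day for 2805 genes (16.1%) and below them for 2373 (13.6%). The number of calls rested in part on single libraries: leaving out replicate 3 of the 3 day group gave 746 calls, leaving out its replicate 1 gave 1055, and leaving out replicate 2 of the 1 day group gave 2358. All 912 rises and all 1000 falls kept their direction when any 1 of the 8 libraries was left out. This says little, because 903 of these rises and 978 of these falls had no overlap between the times. Leaving out 1 library could hardly reverse them. For the same reason, a lack of overlap given below for a called gene adds little to its call.

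**Figure D1:**
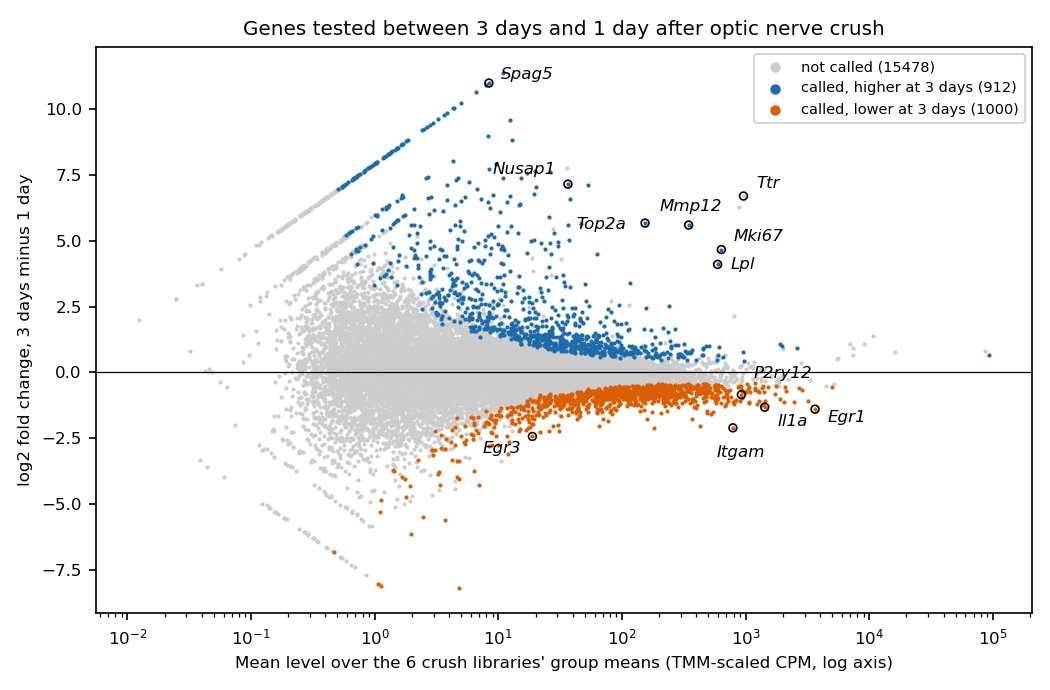
Each point is 1 of the 17390 genes tested, with the mean of its 1 and 3 day group means on the horizontal axis (CPM, log scale) and the log2 fold change of 3 days against 1 day on the vertical axis. The 912 genes that rose reach far higher than the 1000 that fell reach low, and the named points include the division genes Mki67 and Top2a above and the immediate early genes Egr1 and Egr3 below. Straight lines of points at the edges are genes with no or very few counts at 1 of the times.

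By p-value the rises were led by genes of cell division. Most of the 12 largest rises by fold were other genes, as given below. Mki67 (ENSMUSG00000031004) encodes Ki-67, a protein of proliferating cells that coats mitotic chromosomes. It stood at 61.1, 37.2 and 46.6 CPM in the 1 day libraries and at 900.5, 1219 and 1556 CPM in the 3 day libraries, beside 35.6 and 31.6 CPM without injury. Every 3 day library was far above every other library, and the uninjured and 1 day libraries lay close together. The fitted log2 fold change of 3 days against 1 day, given in log2 units throughout, was 4.66 with an SE of 0.23 (adjusted p = 9.68e-08). Top2a (ENSMUSG00000020914), the DNA topoisomerase that untangles replicated chromosomes, went from 2.34, 7.86 and 7.52 CPM to 228, 375 and 303 CPM (5.67 log2 units, SE 0.37, adjusted p = 1.09e-06). Nusap1, a spindle protein, was under 1 CPM in each 1 day library and at 56.9, 63.2 and 97.8 CPM at 3 days (7.15 log2 units, SE 0.40, adjusted p = 2.15e-07). In both genes the times did not overlap, and the 3 day libraries were the highest of the 8. The uninjured libraries lay within the range of the 1 day libraries for Top2a (5.66 and 6.13 CPM) and above all of them for Nusap1 (4.22 and 3.55 CPM).

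Mitosis was the part of the cycle with the most calls. Of 71 genes of mitotic entry, the spindle, condensin and cytokinesis, 57 rose, and the median log2 fold change of the list was 3.63. Ccna2, the cyclin of S phase and G2, had 0, 0.802 and 1.42 CPM at 1 day and 74.1, 59.9 and 91.9 CPM at 3 days (6.60 log2 units, SE 0.61, adjusted p = 2.52e-05). Cdca5, which encodes sororin, the protein that keeps sister chromatids together, had no count at 1 day and 6.73, 7.67 and 15.6 CPM at 3 days, at least 134-fold higher against a floor of 3 counts over the 1 day group. The only member that fell, named here after its value was seen, was Pttg1, which encodes securin, the inhibitor of separase. Its levels were 30.1, 39.1 and 29.6 CPM and then 14.8, 15.1 and 11.2 CPM (−1.26 log2 units, SE 0.27, adjusted p = 0.00825), and it was no longer called without day 3 replicate 3.

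Kinetochore and spindle checkpoint genes rose in 18 of 33 cases, with a median of 3.15. Cenpe, the kinesin that moves chromosomes to the spindle equator, had 5.14, 4.33 and 6.22 CPM at 1 day and 79.0, 121 and 159 CPM at 3 days, beside 7.00 and 4.89 CPM without injury (4.51 log2 units, SE 0.31, adjusted p = 1.95e-06). Bub1, a checkpoint kinase, went from 0.389, 0.0802 and 0.0616 CPM to 28.8, 39.5 and 34.2 CPM (7.58 log2 units, SE 0.60, adjusted p = 6.26e-06). Cenph, a protein of the inner kinetochore, had no count at 1 day and 7.85, 8.79 and 6.54 CPM at 3 days, at least 107-fold higher. In all 3 genes the lowest 3 day library was well above the highest of the other libraries.

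Genes that copy the DNA rose as well, in 27 of 48 cases, with a median of 1.93. Clspn encodes claspin, an adaptor of the replication checkpoint; its levels were 1.87, 0.883 and 0.739 CPM at 1 day and 35.5, 34.4 and 43.2 CPM at 3 days (5.02 log2 units, SE 0.46, adjusted p = 2.44e-05). Mcm5, a subunit of the replicative helicase, had 2.73, 7.30 and 3.33 CPM and then 61.5, 47.0 and 53.4 CPM (3.60 log2 units, SE 0.38, adjusted p = 6.39e-05), and Ticrr, which helps to load helicase activators at origins, had a log2 fold change of 4.51. These replication genes, too, did not overlap between the times, as was so for 903 of all 912 called rises. None of the replication, kinetochore or recombination genes fell in edgeR or in DESeq2, and none was lower even at an unadjusted p under 0.05.

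Upstream of replication, 10 of 26 genes of the G1/S switch rose, with a median of 0.77, and 6 rose without day 3 replicate 3. No member of this list fell with all libraries and 1 did without day 1 replicate 2, although 3 were lower at an unadjusted p under 0.05, and DESeq2 called 0 lower. The activator E2f1 had 2.41, 2.25 and 0.862 CPM at 1 day and 14.7, 11.8 and 11.1 CPM at 3 days (2.77 log2 units, SE 0.56, adjusted p = 0.00622), and E2f2 went from 5.92, 2.65 and 4.19 CPM to 40.0, 21.96 and 30.7 CPM (2.86 log2 units, adjusted p = 0.000495). The repressors of the same family moved in the same direction: E2f7 had 3.37 (adjusted p = 0.00175), and the pocket protein Rbl1 had 2.06 on the log2 scale (adjusted p = 0.00164). Activators and repressors of E2F targets stood higher together at 3 days.

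Of 28 genes of homologous recombination and Fanconi repair, 10 rose, with a median of 1.49. The helicase gene Brip1 had 0.545, 0.802 and 1.17 CPM and then 22.8, 23.2 and 18.7 CPM (4.65 log2 units, SE 0.53, adjusted p = 0.000109), and Polq, the polymerase of microhomology-mediated end joining, had 0, 0.883 and 0.370 CPM and then 20.7, 16.2 and 22.03 CPM (5.54 log2 units, adjusted p = 0.000607). Replication-dependent histone genes, whose messages lack a poly(A) tail, passed the count filter in 23 of 52 cases. Of these, 4 rose and 1 fell, and the median was 0.99. Hist1h4d had 6.70, 6.98 and 8.38 CPM at 1 day and 31.9, 22.2 and 49.8 CPM at 3 days (2.23 log2 units, SE 0.35, adjusted p = 0.00120). The linker histone gene Hist1h1b had no count at 1 day and 4.84, 4.54 and 8.39 CPM at 3 days, at least 80.5-fold higher. Without day 3 replicate 2 the number of rising histone genes was 2. The fall was that of Hist1h1c (−0.91 log2 units, adjusted p = 0.0417), named after its value was seen, and it was not called when any 1 of day 1 replicates 2 and 3, the 3 libraries of 3 days or the 2 uninjured libraries was left out.

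**Figure D2:**
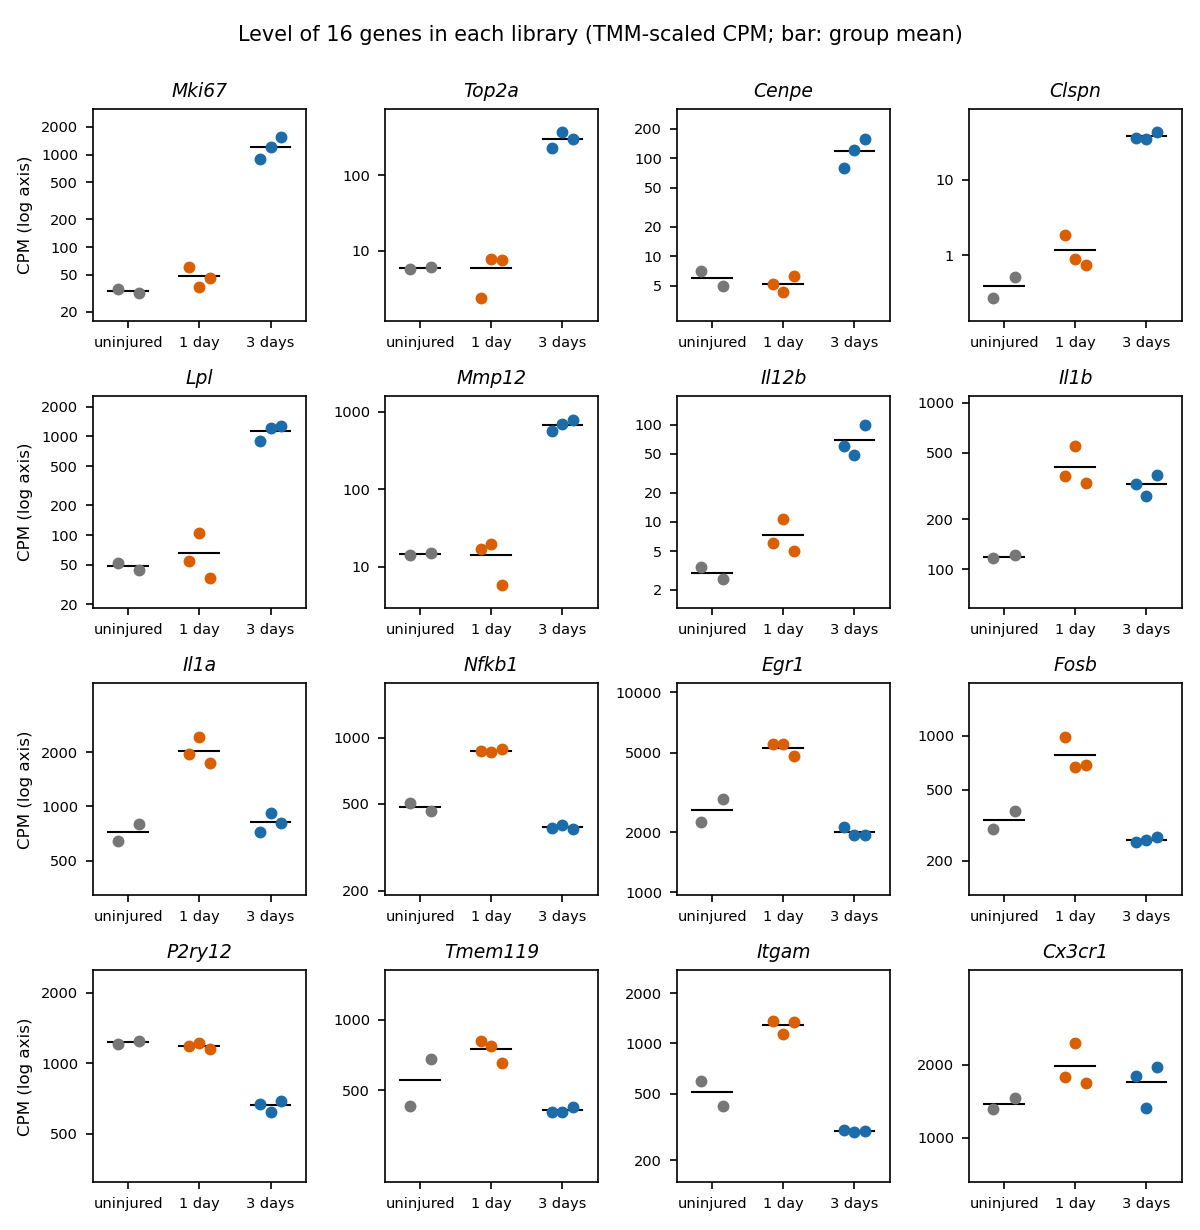
Levels of 16 genes in each of the 8 libraries (CPM, log scale, 1 point a library, with a bar at the group mean), grouped as uninjured, 1 day and 3 days. The 3 day libraries are the highest of the 8 for Mki67, Top2a, Cenpe, Clspn, Lpl, Mmp12 and Il12b, the 1 day libraries are the highest for Il1a, Nfkb1, Egr1, Fosb and Itgam, and the times overlap for Cx3cr1 and Il1b.

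Markers of other cells moved between the times too. The summed level of 8 choroid plexus and ependyma markers, led by Ttr, was 1.09, 56.6 and 1.23 CPM at 1 day and 3563, 619.7 and 1961 CPM at 3 days. The uninjured libraries reached 5486 and 521 CPM on that sum. Ttr itself was at 3309, 591 and 1815 CPM in the 3 day libraries. Every 1 day library was below every 3 day library on the sum, so these markers and the time since crush cannot be told apart. A fit that takes them up is given below.

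The promoters of division genes are of interest because 2 kinds of site are known to time them. Genes of S phase are known targets of E2F factors, and genes of mitosis are known to carry a CHR element, bound by the MuvB core of the DREAM complex, together with CCAAT boxes bound by NF-Y. The windows of the leading member of each of 3 division lists follow, from 250 bases before to 50 bases after the start of the gene, 5′ to 3′, from RefSeq on GRCm38.p6. Capitals mark matches, on either strand, to the CHR (TTTGAA or TTTAAA), the CCAAT box (CCAAT), the E2F site (TTTGGCGC, TTTCCCGC or TTCCCGCC), the AP-1 site (TGANTCA), the CRE (TGACGTCA), the NF-kB site or the serum response element, of which 2 may overlap. Mki67 lies at chr7:135716330-135716629, minus strand, Cenpe at chr3:135212313-135212612, plus strand, and Clspn at chr4:126556730-126557029, plus strand.
Mki67: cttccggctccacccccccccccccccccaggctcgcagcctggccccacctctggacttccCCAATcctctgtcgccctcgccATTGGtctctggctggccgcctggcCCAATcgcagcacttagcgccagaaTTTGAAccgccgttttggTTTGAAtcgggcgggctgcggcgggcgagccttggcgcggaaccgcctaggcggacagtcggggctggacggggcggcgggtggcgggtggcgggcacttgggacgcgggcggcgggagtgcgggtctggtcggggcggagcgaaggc
Cenpe: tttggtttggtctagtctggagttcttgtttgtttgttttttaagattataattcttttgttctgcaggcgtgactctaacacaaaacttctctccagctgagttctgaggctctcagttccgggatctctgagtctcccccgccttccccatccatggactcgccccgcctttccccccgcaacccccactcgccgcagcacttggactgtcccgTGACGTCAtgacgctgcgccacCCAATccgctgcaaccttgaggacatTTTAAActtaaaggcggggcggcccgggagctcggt
Clspn: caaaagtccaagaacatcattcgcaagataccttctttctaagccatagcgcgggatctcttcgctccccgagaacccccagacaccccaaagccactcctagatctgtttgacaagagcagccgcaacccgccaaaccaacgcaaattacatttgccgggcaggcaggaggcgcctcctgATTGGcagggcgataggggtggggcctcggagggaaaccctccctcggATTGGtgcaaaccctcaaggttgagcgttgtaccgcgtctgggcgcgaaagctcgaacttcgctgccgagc
The Mki67 window holds 2 CHR matches that begin 116 and 98 bases before the start, and 3 CCAAT boxes. The Cenpe window holds 1 CHR match, 1 CCAAT box and 1 CRE, and the Clspn window 2 CCAAT boxes and none of the other motifs. A match is a match of letters, and binding was not measured.

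Over the lists, the shares of windows differed by motif. A CHR match was present in 47 of 60 windows of the mitotic list, 78.3% (exact 95% interval 65.8 to 87.9%, counting error only), in 16 of 32 kinetochore windows and in 25.6% of replication windows. Among all 14573 windows of the genes tested, 20.3% held one. E2F sites were present in 39.5% of replication windows, 38.5% of recombination windows and 6 of 60 mitotic windows, beside 5.38% of all windows. CCAAT boxes were in 71.9% of kinetochore windows, 66.7% of mitotic windows and 58.1% of replication windows, beside 37.1% of all. Of the windows of all genes that rose, 27.1% held a CHR match and 9.24% an E2F site, and of those of genes that fell, 19.1% and 2.92%. Members of 1 list and windows of 1 gene are not independent of each other, so these shares are descriptions.

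**Figure D3:**
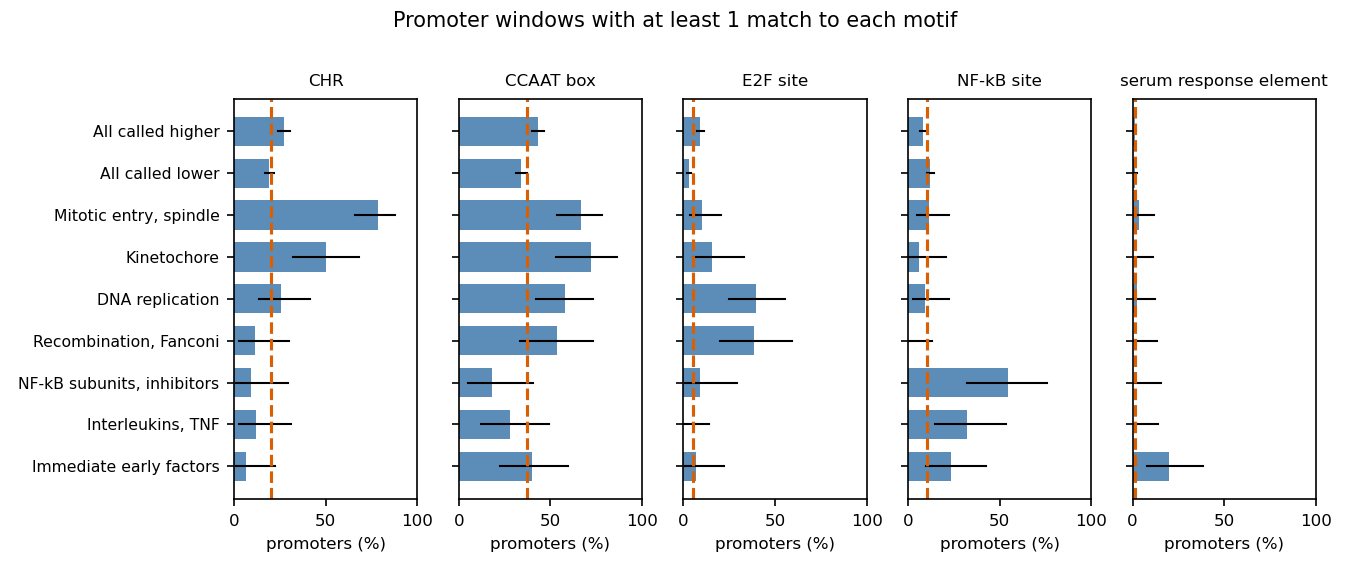
Share of promoter windows, from 250 bases before to 50 bases after the start, that hold a match to each motif, by gene list and over all genes that rose or fell (percent, bars with exact 95% intervals that cover counting error only), with the share over all genes tested as a dashed line. CHR matches reach 78.3% in the mitotic list and E2F sites 39.5% in the replication list, beside 20.3% and 5.38% of all windows.

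Immediate early factors fell. These are genes such as Fos and Egr1 that cells switch on within minutes of a stimulus without new protein synthesis. All 26 members of the list had a negative log2 fold change, 20 of them past the test, and the median was −1.04. Egr1, a zinc finger activator, had 5494, 5543 and 4810.2 CPM at 1 day, 2133, 1947 and 1936 CPM at 3 days and 2256 and 2913 CPM without injury. The 1 day libraries were the highest of the 8, and the 3 day libraries did not exceed the uninjured ones (−1.40 log2 units, SE 0.13, adjusted p = 2.77e-05). Fosb, an AP-1 subunit, went from 985, 669 and 689 CPM to 256, 261 and 271 CPM (−1.57 log2 units, SE 0.17, adjusted p = 5.98e-05), and Fos from 447, 274 and 300.2 CPM to 119.6, 134 and 113 CPM (−1.48 log2 units, SE 0.18, adjusted p = 0.000176). Both were again highest in the 1 day libraries, with day 1 replicate 1 above the other two. Egr3 had the largest fall of the list, from 27.1, 32.4 and 36.0 CPM to 5.30, 5.06 and 7.34 CPM (−2.43 log2 units, SE 0.33, adjusted p = 0.000367). Zfp36, which encodes the mRNA decay factor tristetraprolin, fell from 3329, 3946 and 2891 CPM to 1741, 1444 and 1526 CPM (−1.11 log2 units, adjusted p = 0.00182). None of the 26 rose in edgeR or DESeq2 or was higher at an unadjusted p under 0.05.

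The window of Fosb is shown because immediate early genes are known for serum response elements. Apart from Egr1, whose window is not shown, Fosb had the smallest p among the called members with a window. The window lies at chr7:19309996-19310295, minus strand, from RefSeq on GRCm38.p6, with capitals as above.
Fosb: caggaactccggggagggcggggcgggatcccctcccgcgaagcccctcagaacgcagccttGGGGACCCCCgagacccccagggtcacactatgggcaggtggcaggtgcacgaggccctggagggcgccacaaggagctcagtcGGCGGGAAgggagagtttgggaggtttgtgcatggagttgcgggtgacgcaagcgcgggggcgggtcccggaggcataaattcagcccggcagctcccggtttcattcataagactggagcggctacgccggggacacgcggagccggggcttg
It holds 1 NF-kB site and 1 E2F site and no serum response element within these 300 bases. Serum response elements were found in 6 of 30 windows of the immediate early list and in 1.34% of all windows.

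Feedback and stress genes that follow such stimuli fell with them. Dusp1, the phosphatase that switches off MAP kinases, had 4638, 4903 and 3635 CPM at 1 day and 2218, 1839.9 and 2075 CPM at 3 days, beside 2168 and 2781 CPM without injury (−1.10 log2 units, SE 0.15, adjusted p = 0.000331). Dusp5 went from 79.5, 51.8 and 44.5 CPM to 24.1, 23.1 and 28.8 CPM (−1.21 log2 units, adjusted p = 0.00887). The times did not overlap in either gene. In all, 4 of 9 dual specificity phosphatases fell, with a median of −0.52, and 2 fell without day 3 replicate 1 or without day 3 replicate 3. Heat shock proteins and their partners fell in 7 of 16 cases, with a median of −0.50. Dnajb1, a partner of Hsp70, had 598, 635 and 481 CPM and then 162, 219.8 and 126 CPM (−1.75 log2 units, SE 0.20, adjusted p = 0.000134), and Dnaja1 had 1223, 724 and 967 CPM and then 402, 417 and 370.3 CPM (−1.29 log2 units, adjusted p = 0.000911). In Dnaja1 the uninjured libraries, at 1304 and 815 CPM, were as high as those of 1 day. The heat shock count was 4 without day 1 replicate 1, and in the 3 day group leaving out replicate 1 left 3 and leaving out replicate 3 left 2. No member of the 2 lists rose in edgeR or DESeq2, and 1 heat shock gene was higher at an unadjusted p under 0.05.

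NF-kB genes fell in 10 of 21 cases, with a median of −0.72. Among the subunits, Nfkb1 had 868, 862 and 883 CPM at 1 day, 386, 401 and 382 CPM at 3 days and 505 and 462 CPM without injury (−1.16 log2 units, SE 0.12, adjusted p = 5.83e-05), and Rel had 1988, 1978 and 1877 CPM, then 895, 964 and 909 CPM (−1.08 log2 units, SE 0.12, adjusted p = 7.28e-05). The spread within each time was small beside the gap, and the uninjured libraries lay between the times. Inhibitors of the pathway took the same course. Tnfaip3, which encodes the ubiquitin-editing enzyme A20, fell from 1768, 1678 and 1732 CPM to 660.2, 989 and 604 CPM (−1.20 log2 units, SE 0.17, adjusted p = 0.000490), and Nfkbiz, an atypical inhibitor that is also a co-activator, had −1.13 on the log2 scale. No member rose in edgeR or DESeq2, and 1 was higher at an unadjusted p under 0.05. NF-kB sites were found in 54.5% of the windows of these genes, beside 10.2% of all windows and 12.2% of those of genes that fell.

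Cytokines did not move as 1 group. Il1a, the alpha form of interleukin 1, fell from 1953, 2418 and 1751 CPM to 721, 924 and 804 CPM, beside 641 and 795 CPM without injury (−1.32 log2 units, SE 0.15, adjusted p = 0.000135). Nlrp3, the inflammasome sensor, fell from 532, 550.1 and 492 CPM to 270.0, 208 and 272 CPM (−1.07 log2 units, SE 0.14, adjusted p = 0.000354). In both, the 1 day libraries were the highest of the 8 and the 3 day libraries lay near the uninjured ones. Il12b, the p40 subunit shared by interleukins 12 and 23, rose from 6.08, 10.6 and 5.05 CPM to 60.9, 48.2 and 98.3 CPM, beside 3.42 and 2.58 CPM without injury (3.26 log2 units, SE 0.36, adjusted p = 9.42e-05). Acod1, the enzyme that makes itaconate in activated macrophages, rose from 31.1, 82.5 and 32.8 CPM to 228, 305 and 262 CPM (2.44 log2 units, SE 0.31, adjusted p = 0.000255). Both were highest in the 3 day libraries without overlap. Il1b had 362, 546 and 329 CPM and then 325, 277 and 369 CPM (−0.35 log2 units, SE 0.18, adjusted p = 0.248), and Tnf had 712, 1162 and 645 CPM and then 744, 708 and 873 CPM (−0.12 log2 units, SE 0.22, adjusted p = 0.803), and neither passed the test. Of 26 members in all, 2 rose and 4 fell, with a median of −0.28. The other two falls, named to complete the count, were those of the inflammatory caspase Casp4 (−1.18 log2 units, adjusted p = 0.00107) and the interleukin Il18 (−1.27 log2 units, adjusted p = 0.0351). The Il12b window is shown because this gene had the smallest p among the called members of this list with a window. It lies at chr11:44399813-44400112, plus strand, from RefSeq on GRCm38.p6, with capitals as above.
Il12b: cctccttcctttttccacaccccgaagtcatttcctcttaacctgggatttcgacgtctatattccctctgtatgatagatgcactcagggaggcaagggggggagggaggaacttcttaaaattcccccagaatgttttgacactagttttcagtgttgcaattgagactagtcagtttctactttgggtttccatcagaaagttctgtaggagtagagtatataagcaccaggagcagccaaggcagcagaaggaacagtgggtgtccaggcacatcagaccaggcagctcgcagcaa
None of the motifs searched was found in these letters. The search took fixed letters, so a site of other letters would be missed, and binding was not measured.

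Chemokine genes were divided as well, with 5 of 18 up, 2 down and a median of 0.18. Cxcl10, a ligand of Cxcr3, rose from 76.5, 96.9 and 83.1 CPM to 205, 290.0 and 283 CPM (1.60 log2 units, SE 0.18, adjusted p = 9.17e-05). Ccl6 rose from 28.4, 52.2 and 24.5 CPM to 120.4, 119 and 170.0 CPM (1.96 log2 units, SE 0.27, adjusted p = 0.000459) and Ccl5, a chemoattractant of T cells, from 58.6, 46.1 and 32.4 CPM to 110.4, 98.6 and 116 CPM (1.25 log2 units, adjusted p = 0.00273). Each of the 3 was above the uninjured level in every 3 day library. Ccl7, a ligand of Ccr2, fell from 56.2, 65.6 and 62.2 CPM to 27.5, 30.3 and 24.9 CPM (−1.15 log2 units, SE 0.21, adjusted p = 0.00285). The remaining calls, named to complete the count, were rises of Cxcl14 (4.90 log2 units, adjusted p = 0.0261) and Ccl9 (0.58 log2 units, adjusted p = 0.0284) and a fall of Ccl4 (−0.55 log2 units, adjusted p = 0.0358). Without day 1 replicate 1 or day 3 replicate 3 the rises numbered 3, and Ccl4 was no longer called without any 1 of 5 libraries (day 1 replicates 1 and 2 and the 3 libraries of 3 days). Among 22 Toll-like receptors and adaptors, 1 rose (Tlr2, 0.46 log2 units, adjusted p = 0.0499) and 3 fell (Tlr9, −0.80 log2 units, adjusted p = 0.0128; Ticam1, −0.89 log2 units, adjusted p = 0.0142; Irak2, −0.68 log2 units, adjusted p = 0.0305), with a median of −0.39. None of these 4 calls held without day 3 replicate 3, and 1 of the falls held without day 3 replicate 1 or 2. Tlr2 was called in 1 of the 8 fits with a library left out, that without day 1 replicate 2, where 2 members rose.

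Homeostatic genes of microglia fell in 15 of 26 cases, with a median of −0.72, and 24 of the 26 had a negative log2 fold change. P2ry12, the ADP receptor with which microglia sense damage, had 1185, 1228 and 1151 CPM at 1 day and 670.2, 619 and 692 CPM at 3 days, beside 1211 and 1249 CPM without injury (−0.85 log2 units, SE 0.12, adjusted p = 0.000492). For P2ry12 the 1 day libraries were at the uninjured level, and all 3 day libraries were well below both. The summed level of the list took another course. It was 30350, 34080 and 27773 CPM at 1 day and 22629, 19778 and 21582 CPM at 3 days, beside 20081 and 26894 CPM without injury. On that sum the 3 day libraries lay near the uninjured ones and the 1 day libraries above them. Tmem119, a membrane protein of microglia, had 812, 773 and 653 CPM and then 403, 404 and 421 CPM, beside 426 and 679 CPM (−0.87 log2 units, SE 0.16, adjusted p = 0.00394), and here 1 uninjured library was nearly as low as the 3 day libraries. Siglech, a sialic acid receptor, fell from 909, 703 and 695 CPM to 387, 346 and 349 CPM (−1.09 log2 units, SE 0.16, adjusted p = 0.000573), and Mef2a, a transcription factor of the microglial program, from 1204, 1161 and 1318 CPM to 533, 632 and 563 CPM (−1.09 log2 units, SE 0.13, adjusted p = 0.000134). Neither overlapped between the times. Cx3cr1, the fractalkine receptor, had 1769, 2443 and 1686 CPM and then 1801, 1321 and 1962 CPM and did not pass the test (−0.21 log2 units, SE 0.17, adjusted p = 0.465). No homeostatic gene rose in edgeR or DESeq2 or was higher at an unadjusted p under 0.05. In bulk RNA, fewer cells of a type and less RNA per cell cannot be told apart.

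TGF-beta is the cytokine that upholds the homeostatic state, and 8 of 19 genes of its signalling fell, with a median of −0.59 and 5 without day 3 replicate 3. The receptor gene Tgfbr1 had 1348, 1109 and 1294 CPM at 1 day and 711, 771 and 726 CPM at 3 days (−0.76 log2 units, SE 0.13, adjusted p = 0.00175), and Itgav, the integrin subunit that helps to release active TGF-beta, had 367, 422 and 362 CPM and then 203, 251 and 221 CPM (−0.77 log2 units, adjusted p = 0.00286). Not all of the genes that fell promote the signal. Skil, which encodes the repressor SnoN, fell from 956, 984 and 1017 CPM to 506, 479 and 417 CPM (−1.08 log2 units, SE 0.13, adjusted p = 0.000139), and the co-repressor Tgif1 from 285, 392 and 242 CPM to 149, 151 and 117 CPM (−1.14 log2 units, adjusted p = 0.00149). The 1 rise, named to complete the count, was that of Itgb8 (2.73 log2 units, adjusted p = 0.0418), which was no longer called without uninjured replicate 1 or any of 5 injured libraries (day 1 replicates 2 and 3 and the 3 of 3 days); 2 members rose without day 1 replicate 1.

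Itgam, the gene of the CD11b subunit used to select the cells, fell from 1366, 1133 and 1347 CPM to 304, 294 and 297 CPM, beside 597 and 419 CPM without injury (−2.10 log2 units, SE 0.15, adjusted p = 2.57e-06). The 3 libraries of 3 days lay within a narrow range under all others. In the GENCODE M21 annotation this gene shares 3450 of its 5024 exonic bases with Gm49368 on the same strand, so the value depends on how reads in the shared bases were assigned. Its partner Itgb2, with which it forms complement receptor 3, fell from 623, 533 and 590.1 CPM to 346, 411 and 341 CPM (−0.67 log2 units, SE 0.14, adjusted p = 0.00626). Of 21 complement genes 4 fell and 1 rose, with a median of −0.42, and without day 3 replicate 1 or day 3 replicate 3 the falls numbered 2. The falls included that of C3ar1, the receptor of the C3a fragment (−0.54 log2 units, adjusted p = 0.0236), and the rise was that of Cd59a (2.59 log2 units, adjusted p = 0.00991), not called without day 3 replicate 3, while 2 rose without day 1 replicate 2. C1qa had 53.7, 64.4 and 64.3 CPM and then 62.2, 42.9 and 51.2 CPM and did not pass the test (−0.22 log2 units, adjusted p = 0.631), nor did C3, with 7.24, 14.1 and 9.55 CPM and then 16.5, 22.6 and 24.3 CPM (1.04 log2 units, adjusted p = 0.0780).

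Among 25 purinergic and chemotactic receptors and enzymes, 4 fell and 1 rose, with a median of −0.49. Entpd1, the ectoenzyme CD39 that breaks down extracellular ATP, fell from 769, 798 and 780.4 CPM to 444, 390.1 and 375 CPM, beside 644 and 706 CPM without injury (−0.96 log2 units, SE 0.13, adjusted p = 0.000318). The 3 day libraries were lowest of the 8 without overlap. The further falls included those of C3ar1 and Cmklr1 (−0.91 log2 units, adjusted p = 0.0301), the latter chosen after its value was seen, and 1 of the falls was called without replicate 1 of the 1 day group or replicate 3 of the 3 day group, and 2 were when either of the other 3 day libraries was left out. S1pr1, a receptor of sphingosine 1-phosphate, rose (0.98 log2 units, adjusted p = 0.00807), but not without day 3 replicate 3, and 2 members rose without day 1 replicate 1 or 2.

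Genes described in disease-associated microglia rose in 13 of 31 cases and fell in 2, with a median of 0.51. Lpl, the lipase that frees fatty acids from lipoproteins, had 54.5, 106 and 36.4 CPM at 1 day and 892, 1202 and 1275 CPM at 3 days, beside 52.2 and 44.6 CPM without injury (4.10 log2 units, SE 0.34, adjusted p = 4.51e-05). Spp1, which encodes osteopontin and shares 309 exonic bases with Gm42793 on the same strand, rose from 9.81, 29.4 and 20.8 CPM to 180.1, 173 and 284 CPM (3.41 log2 units, SE 0.33, adjusted p = 3.96e-05). Igf1, the insulin-like growth factor, rose from 14.2, 41.5 and 27.4 CPM to 96.8, 159 and 152 CPM (2.30 log2 units, SE 0.32, adjusted p = 0.000470). In all 3 genes the 3 day libraries were the highest of the 8 and did not overlap the rest. Ctsb, a lysosomal cysteine protease, rose from 1724, 2124 and 1572 CPM to 3211, 3569.7 and 3474 CPM (0.92 log2 units, SE 0.14, adjusted p = 0.00103), and Ank, a membrane transporter of pyrophosphate, from 36.5, 63.3 and 40.9 CPM to 142, 190.3 and 180.2 CPM (1.86 log2 units, adjusted p = 0.000154). Cd68, a lysosomal membrane protein of macrophages, rose by less (0.59 log2 units, adjusted p = 0.0139), and not when replicate 3 of the 1 day group or replicate 1 or 3 of the 3 day group was left out. Trem2, the lipid receptor on which this state depends in mouse models, had 309, 320.1 and 236 CPM and then 289, 303 and 337 CPM (0.10 log2 units, SE 0.19, adjusted p = 0.791), and Apoe had 312, 249.7 and 333 CPM and then 294, 229 and 280.0 CPM (−0.15 log2 units, SE 0.16, adjusted p = 0.596), and neither passed the test. The falls were those of Itgb2 and of the lysozyme gene Lyz2 (−1.09 log2 units, adjusted p = 0.000597), the latter named to complete the count.

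Mmp12, the macrophage elastase, showed one of the largest rises of an abundant gene. It had 16.7, 19.8 and 5.85 CPM at 1 day and 556, 691 and 788 CPM at 3 days, beside 14.4 and 14.9 CPM without injury (5.59 log2 units, SE 0.38, adjusted p = 6.95e-06). The lowest 3 day library was far above the highest of the other 5. It belongs to a list of 30 genes of adhesion and matrix, of which 6 rose and 6 fell, with a median of 0.09. The sialic acid receptor Cd33 fell from 1185, 1368 and 1193 CPM to 671, 631 and 605 CPM (−0.97 log2 units, SE 0.15, adjusted p = 0.00101), and the integrin subunit Itga9 from 134, 182 and 139 CPM to 88.9, 71.5 and 64.4 CPM (−1.02 log2 units, adjusted p = 0.00286). Nes, which encodes the intermediate filament protein nestin, rose from 60.5, 65.9 and 89.5 CPM to 357, 403 and 471 CPM, beside 97.4 and 103 CPM without injury (2.51 log2 units, SE 0.18, adjusted p = 2.57e-06). The actin-severing gene Cfl1 rose from 307, 456 and 249.6 CPM to 687, 576 and 787 CPM, beside 152 and 214 CPM without injury (1.02 log2 units, adjusted p = 0.00657). The spectrin gene Sptbn1 rose from 440.3, 332 and 473 CPM to 797, 777 and 854 CPM, beside 1138 and 814 CPM without injury (0.96 log2 units, adjusted p = 0.00175). Sptbn1 was thus lowest at 1 day, and at 3 days it did not exceed the higher uninjured library. All 3 cytoskeletal genes were chosen by a rule that requires no overlap between the times, so their lack of overlap is no separate result.

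Other genes of uptake and digestion changed little or in both directions. Of 49 lysosomal genes, a list that leaves out Ctsb and Cd68 as they stand in the disease-associated list, 2 rose and 1 fell, with a median of 0.03, while DESeq2 called 5 and 3, and 5 rose without day 1 replicate 2. Gusb, a lysosomal glucuronidase, rose from 162, 182 and 177 CPM to 342, 375 and 361 CPM (1.05 log2 units, SE 0.13, adjusted p = 0.000255), and Lipa, the lysosomal acid lipase, from 175, 149 and 149.6 CPM to 238, 282 and 254 CPM (0.71 log2 units, adjusted p = 0.00682). Ctss, a cysteine protease abundant in microglia, fell from 1880.4, 1704 and 2073 CPM to 719.6, 1123 and 578 CPM (−1.22 log2 units, SE 0.19, adjusted p = 0.00118), so that it moved against Ctsb; 2 genes fell when replicate 2 of the 1 day group or replicate 1 or 3 of the 3 day group was left out. Of 38 genes for the engulfment of apoptotic or antibody-coated cells, 3 fell and 2 rose, with a median of 0.06. In this list and the lysosomal list the shares called were near or below those of all genes tested, 5.24% for rises and 5.75% for falls. Mertk, a receptor kinase that recognises phosphatidylserine through bridging proteins, fell from 685, 745 and 816 CPM to 438, 339 and 367 CPM (−0.97 log2 units, SE 0.14, adjusted p = 0.000542). Itgav and Elmo1 (−0.55 log2 units, adjusted p = 0.0107) fell as well, and Msr1 (0.85 log2 units, adjusted p = 0.0377) and Fcer1g (0.79 log2 units, adjusted p = 0.0452) rose. Neither rise was called when replicate 1 of the 1 day group or replicate 1 or 3 of the 3 day group was left out, 1 of them was called without any other injured library, and 5 genes fell without day 1 replicate 2.

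Of 23 genes that handle lipids 4 rose and 1 fell, with a median of −0.25. The rises were those of Lpl, Lipa, the cholesterol 25-hydroxylase gene Ch25h (2.61 log2 units, adjusted p = 0.0162) and the lipid droplet gene Plin2 (0.75 log2 units, adjusted p = 0.0293), and the last pair was not called when replicate 3 of the 1 day group or replicate 1 or 2 of the 3 day group was left out. Dgat1, which makes triglycerides, fell (−1.01 log2 units, adjusted p = 0.0473), but of the 8 fits that leave 1 library out, it was called only without day 1 replicate 3 or day 3 replicate 3. None of 27 genes of sterol synthesis and uptake passed edgeR's test. At an unadjusted p under 0.05, 2 were higher and 1 lower, and DESeq2 called 1 higher; without day 1 replicate 1 edgeR called 1, Ebp.

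**Figure D4:**
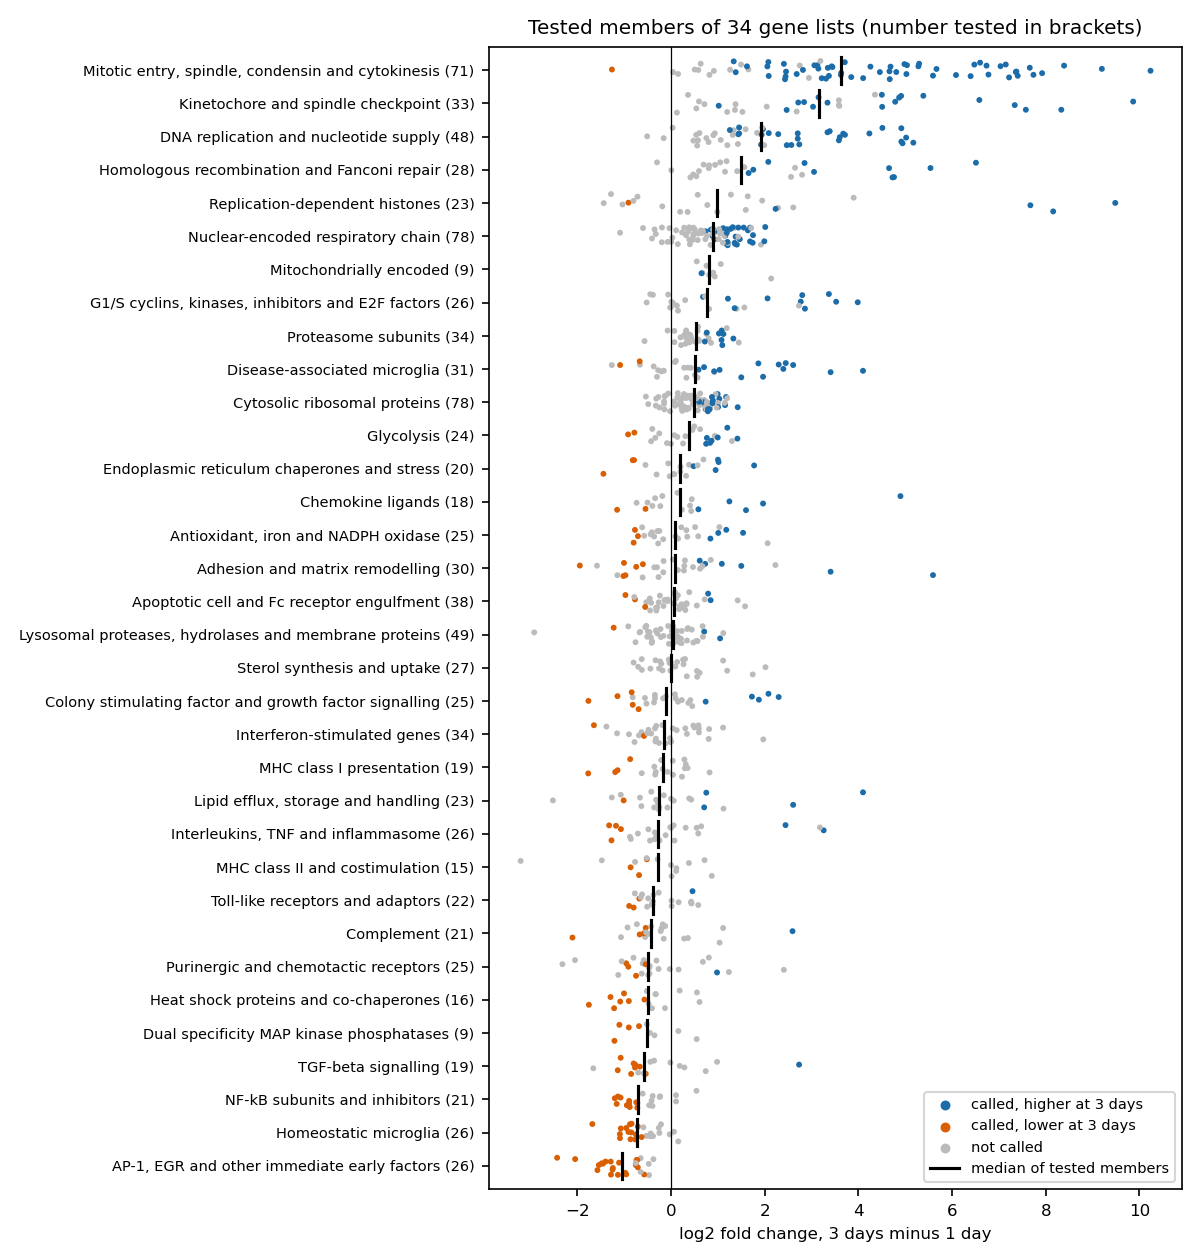
Log2 fold change of 3 days against 1 day for every tested member of 34 gene lists, 1 point a gene, coloured by whether it rose, fell or did not pass the test, with a line at the median of each list. The medians of the mitotic list (3.63) and the kinetochore list (3.15) lie far to the right of 0, and those of the immediate early (−1.04), homeostatic (−0.72) and NF-kB (−0.72) lists to the left.

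Growth factors and their receptors moved both ways, with 5 of 25 up, 5 down and a median of −0.11. Bcl2, the inhibitor of apoptosis, rose from 10.05, 21.9 and 20.5 CPM to 59.5, 76.2 and 86.2 CPM (2.08 log2 units, SE 0.30, adjusted p = 0.000564), alongside Igf1. Hbegf, a ligand of the EGF receptor, fell from 75.8, 64.1 and 62.0 CPM to 16.7, 23.8 and 18.9 CPM (−1.76 log2 units, SE 0.23, adjusted p = 0.000284), and Csf3r, the receptor of G-CSF, from 313, 413 and 379 CPM to 196, 157 and 147 CPM (−1.14 log2 units, SE 0.17, adjusted p = 0.000925). These 4 genes did not overlap between the times. The other calls, named to complete the count, were rises of Igf2r (1.88), Igf1r (0.74) and Vegfa (1.73) and falls of Runx1 (−0.84), Cebpa (−0.82) and Pdgfb (−0.69), all as log2 fold changes. Without day 3 replicate 3 there were 3 in each direction.

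Several housekeeping groups stood higher at 3 days, beside the larger share of counts from the mitochondrial genome given above. Of 78 nuclear genes of the respiratory chain 30 rose and none fell in edgeR or DESeq2 or was lower at an unadjusted p under 0.05, and the median was 0.89. Cox6a1, a subunit of cytochrome oxidase, had 15.9, 23.03 and 23.1 CPM and then 62.8, 66.3 and 78.6 CPM (1.74 log2 units, SE 0.24, adjusted p = 0.000470), and Uqcrb, a subunit of complex III, had 7.32, 7.70 and 4.99 CPM and then 28.1, 25.8 and 25.7 CPM (1.99 log2 units, SE 0.33, adjusted p = 0.00175). Both were without overlap. The count depended on single libraries: leaving out replicate 1, 2 or 3 of the 3 day group gave 11, 18 and 4 rises, and leaving out replicate 1 or 3 of the 1 day group gave 14 and 15. All 9 tested genes of the mitochondrial genome had a positive log2 fold change, with a median of 0.81; of these mt-Rnr2 passed the test (0.65 log2 units, adjusted p = 0.0340), and all 9 did without day 1 replicate 2, the 1 day library with the highest mitochondrial share. The count was 2 without day 3 replicate 1, and mt-Rnr2 was not called when replicate 1 or 3 of the 1 day group or replicate 2 or 3 of the 3 day group was left out.

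Cytosolic ribosomal protein genes rose in 16 of 78 cases, with a median of 0.48. None fell in edgeR or DESeq2 with all libraries, 1 fell in edgeR without day 3 replicate 2, and 1 was lower at an unadjusted p under 0.05. Rpl32 had 88.4, 97.8 and 83.2 CPM and then 149, 160.2 and 156 CPM (0.79 log2 units, SE 0.17, adjusted p = 0.00832). These genes have many processed copies in the genome, so their counts are uncertain. Leaving out replicate 1, 2 or 3 of the 1 day group gave 3, 34 and 4 rises, and leaving out replicate 1, 2 or 3 of the 3 day group gave 4, 7 and 1. Proteasome subunits rose in 8 of 34 cases, with a median of 0.54, and none fell in edgeR or DESeq2 or was lower at an unadjusted p under 0.05. Psmb6, a catalytic subunit, had 29.8, 26.6 and 31.5 CPM and then 78.7, 68.2 and 74.4 CPM without overlap (1.33 log2 units, SE 0.22, adjusted p = 0.00147). The proteasome count was 3 and 4 without replicate 1 or 3 of the 1 day group, and 5, 4 and 1 without replicate 1, 2 or 3 of the 3 day group.

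Glycolytic genes rose in 7 of 24 cases and fell in 2, with a median of 0.38. Pkm, pyruvate kinase, had 146, 183 and 115 CPM at 1 day and 337, 333 and 349.8 CPM at 3 days, beside 89.9 and 94.5 CPM without injury (1.20 log2 units, SE 0.17, adjusted p = 0.000495), and Ldha, lactate dehydrogenase, went from 127, 96.9 and 81.1 CPM to 187, 215 and 207 CPM (1.0 log2 units, SE 0.18, adjusted p = 0.00260). Pfkfb3, which makes the activator of phosphofructokinase, fell from 813, 914 and 861 CPM to 535, 417 and 419 CPM (−0.92 log2 units, SE 0.14, adjusted p = 0.000781), and hexokinase 2 (Hk2), named to complete the count, fell as well (−0.78 log2 units, adjusted p = 0.0313). Without day 3 replicate 3, 4 genes rose, and 1 fell without day 1 replicate 2 or 3 or day 3 replicate 2 or 3.

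Among 20 endoplasmic reticulum genes 5 rose and 3 fell, with a median of 0.20. Ddit3, which encodes the stress factor CHOP, fell from 123.3, 97.3 and 139.8 CPM to 37.9, 47.9 and 46.7 CPM (−1.44 log2 units, SE 0.19, adjusted p = 0.000316), and Dnajb9 (−0.79 log2 units, adjusted p = 0.00731) and Herpud1 (−0.82 log2 units, adjusted p = 0.0161), both induced by misfolded proteins, fell as well. Sdf2l1, a chaperone component, rose from 28.04, 43.0 and 26.6 CPM to 113, 81.2 and 139.8 CPM (1.77 log2 units, SE 0.25, adjusted p = 0.000532), and the other rises, named to complete the count, were those of Creld2 (1.01) and the disulfide isomerases Pdia6 (0.95), Pdia4 (1.0) and Pdia3 (0.48), as log2 fold changes. The rises numbered 2 and 1 without replicate 1 or 3 of the 1 day group, and 3, 2 and 1 without replicate 1, 2 or 3 of the 3 day group, the last of which also left 1 fall. Of 25 genes of redox and iron handling 4 rose and 3 fell, with a median of 0.09. Cybb, the catalytic subunit of the phagocyte NADPH oxidase, rose from 121, 162 and 81.1 CPM to 344, 328 and 384 CPM (1.54 log2 units, SE 0.21, adjusted p = 0.000443), while Ncf1, a cytosolic subunit of the same enzyme, fell (−0.71 log2 units, adjusted p = 0.00931). The iron importer Slc11a2 fell from 473, 611 and 547 CPM to 363, 325 and 267 CPM (−0.77 log2 units, adjusted p = 0.00467). Further calls were a fall of Ftl1 (−0.80 log2 units, adjusted p = 0.0259) and, named to complete the count, rises of Gsr (1.01 log2 units, adjusted p = 0.0309), Txn1 (1.18 log2 units, adjusted p = 0.0383) and Gclm (0.84 log2 units, adjusted p = 0.0494). The rises numbered 1 and 2 without replicate 1 or 3 of the 1 day group, 1 without replicate 2 or 3 of the 3 day group and 2 without either uninjured library, and 1 gene fell without day 3 replicate 3.

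Antigen presentation was lower where it changed. H2-K1, a classical class I heavy chain, fell from 1232, 1071 and 1036 CPM to 477, 550.2 and 434 CPM, beside 747 and 751 CPM without injury (−1.19 log2 units, SE 0.13, adjusted p = 0.000106), and H2-D1 from 722, 851 and 703 CPM to 439, 457 and 347 CPM (−0.87 log2 units, SE 0.14, adjusted p = 0.00147). The 3 day libraries were the lowest of the 8 in both genes. H2-Q6 (−1.77 log2 units, adjusted p = 9.42e-05) and H2-Q7 (−1.14 log2 units, adjusted p = 0.00368) fell too, but these are near-identical copies whose reads can be split or lost. These were the 4 calls among 19 class I genes, whose median was −0.18, and all 4 held with each library left out. Of 15 class II and costimulation genes 3 fell, with a median of −0.29. These were Cd86 (−0.68 log2 units, adjusted p = 0.00657), Cd80 (−0.86 log2 units, adjusted p = 0.0160) and Cd74 (−0.52 log2 units, adjusted p = 0.0326). None of the 3 was called without day 3 replicate 3, 1 was without day 3 replicate 1, and 1 gene rose without day 1 replicate 2. Of 34 interferon-stimulated genes 2 fell, Oas2 (−1.65 log2 units, adjusted p = 0.0149) and Irf8 (−0.58 log2 units, adjusted p = 0.0417), with a median of −0.15. That share is close to the 5.75% of all genes tested that fell. Neither was called without day 3 replicate 3, 1 was without day 1 replicate 3 or day 3 replicates 1 or 2, and 1 gene rose without day 1 replicate 2. No gene of these 3 lists rose in edgeR or DESeq2 with all libraries, and 0 of 19, 1 of 15 and 3 of 34 were higher at an unadjusted p under 0.05.

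The largest changes by fold, whatever the gene, mixed division genes with genes of another kind. Of the 12 largest rises without overlap and with a mean of 5 CPM or more at 1 of the times, only Spag5, Cdca5, Cenph and Hist1h1b belong to the cell cycle. Spag5, which encodes the spindle protein astrin, had no count at 1 day and 20.5, 11.9 and 17.9 CPM at 3 days, at least 234-fold higher. Most of the rest, the larger part of the 12, were also high in an uninjured library. Otx2, a transcription factor of the choroid plexus, had no count at 1 day, 22.6, 1.12 and 23.6 CPM at 3 days and 38.3 and 3.66 CPM without injury, and Folr1, the folate receptor of the same epithelium, had no count at 1 day, 14.9, 1.71 and 9.28 CPM at 3 days and 9.40 and 0.515 CPM without injury. Day 3 replicate 2 and uninjured replicate 2 were low in both. Of the 12 largest falls chosen in the same way, 4 were called with each library left out, and these were Mast1, a microtubule-associated kinase (−3.08 log2 units, SE 0.52, adjusted p = 0.00174), Trim30c (−2.74 log2 units, SE 0.45, adjusted p = 0.00161), Arhgap15, a regulator of Rac (−2.53 log2 units, SE 0.55, adjusted p = 0.00887), and Egr3.

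Markers of cells other than microglia, 11 lists in all, were examined for the same contrast. Endothelial markers had positive log2 fold changes in 15 of 15 cases and rose in 8, with a median of 0.76. Their summed level was 768, 655 and 717 CPM at 1 day, 1155, 1341 and 1224 CPM at 3 days and 1709.8 and 1450.0 CPM without injury, so the 1 day libraries were lowest. Flt1, a VEGF receptor, had 310.1, 230.0 and 264 CPM and then 434, 486 and 444 CPM (0.76 log2 units, SE 0.15, adjusted p = 0.00432), and Slco1c1, a thyroid hormone carrier of the blood-brain barrier, had 37.0, 32.2 and 39.6 CPM and then 76.1, 87.1 and 96.7 CPM (1.26 log2 units, SE 0.21, adjusted p = 0.00149). The endothelial count was 5 without day 3 replicate 2 or 3. Of 11 mural cell markers 4 rose, led by the pericyte gene Rgs5 (0.67 log2 units, adjusted p = 0.00706), with summed levels of 979, 788 and 987 CPM and then 1297, 1159 and 1136 CPM; the count was 2 without day 3 replicate 2 and 1 without day 3 replicate 3, and 2 members fell without day 1 replicate 2.

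The choroid plexus markers had positive log2 fold changes in 8 of 8 cases, with a median of 6.62, and 5 of them rose. Their sums, given above, were near 1 CPM in day 1 replicates 1 and 3 and higher in day 1 replicate 2, and they differed several-fold among the 3 day libraries. Ttr, the transthyretin gene of that epithelium, had 0.467, 54.2 and 0.986 CPM at 1 day and did not pass the test (6.70 log2 units, SE 2.24, adjusted p = 0.138), and the list's count was 2 without day 1 replicate 1 or 3 and 3 without day 3 replicate 3. When the mean level of these markers was added to the fit as a covariate, 26 genes were called, 24 up and 2 down, and 954 passed an unadjusted p under 0.05. The median rise of the 912 genes was then 1.40 with a median SE of 0.84, and the median fall of the 1000 was −0.76 with a median SE of 0.43. The direction was kept by 873 of the 912 and 990 of the 1000. The covariate is lower in every 1 day library than in every 3 day library, so within these 6 libraries it and the time since crush cannot be told apart.

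Blood-borne and border cells were no higher at 3 days by the test. Of 9 neutrophil markers 2 fell, Csf3r and S100a8 (−2.26 log2 units, adjusted p = 0.00431), with summed levels of 392, 562 and 439 CPM and then 218, 209 and 178 CPM, mostly from Csf3r, and 4 members fell without day 1 replicate 1. Ly6g, the marker that defines neutrophils, was below 1 CPM in all 6 libraries. Of 6 tested monocyte markers none passed edgeR's test; 1 was lower at an unadjusted p under 0.05 and DESeq2 called 1 lower. Their sums were 82.4, 117 and 57.3 CPM and then 65.9, 64.3 and 85.6 CPM, mostly from Itga4, while Ccr2 had 3.27, 9.39 and 5.73 CPM and then 3.73, 2.08 and 2.58 CPM and Ly6c2 was below 1 CPM throughout. Of 9 border macrophage markers 1 fell, F13a1 (−1.07 log2 units, adjusted p = 0.00337), and 2 did without day 1 replicate 2; their sums were 731, 574 and 817 CPM and then 489, 519 and 416 CPM. Lymphocyte sums were 17.1, 17.3 and 16.6 CPM and then 29.9, 20.3 and 33.8 CPM, with 8 markers, Cd3e among them, below 1 CPM in each library and none of 3 tested genes called by edgeR or DESeq2, though 1 was higher at an unadjusted p under 0.05.

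Glial and neuronal markers showed few calls. Among 11 astrocyte markers 2 rose and 1 fell, with sums of 107, 89.1 and 155 CPM and then 73.2, 81.8 and 82.5 CPM. Slc1a3, a glutamate transporter, fell (−0.86 log2 units, adjusted p = 0.0128), though not without day 3 replicate 1 or 3, and Gjb6, a connexin, rose from 0, 0.0802 and 0.123 CPM to 2.09, 1.86 and 0.161 CPM (4.13 log2 units, adjusted p = 0.0258); the rises numbered 1 without either uninjured library, day 1 replicates 2 or 3 or day 3 replicates 2 or 3, and neither was called without day 1 replicate 1 or day 3 replicate 1. None of 10 oligodendrocyte markers passed the test in edgeR or DESeq2, 1 was higher at an unadjusted p under 0.05, and their sums were 72.6, 126 and 69.0 CPM and then 114, 77.3 and 111 CPM, with Olig2 at 0 in all 6 libraries. Of 9 neuronal markers 1 fell, Prkcd (−0.87 log2 units, adjusted p = 0.0178), and it was not called without day 1 replicate 1 or 3 or day 3 replicate 2 or 3, while 2 fell without day 1 replicate 2; Gad1, Gad2 and Slc17a7 were below 1 CPM. The neuronal sums were 442, 263 and 396 CPM and then 232, 218 and 212 CPM. Of 3 erythroid markers none passed in edgeR, 2 were higher at an unadjusted p under 0.05 and DESeq2 called 1 higher, with sums of 1.48, 1.04 and 1.36 CPM and then 4.77, 4.47 and 5.41 CPM. The part of any of these cells in the changes described was not tested beyond the fit with choroid plexus markers.

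**Figure D5:**
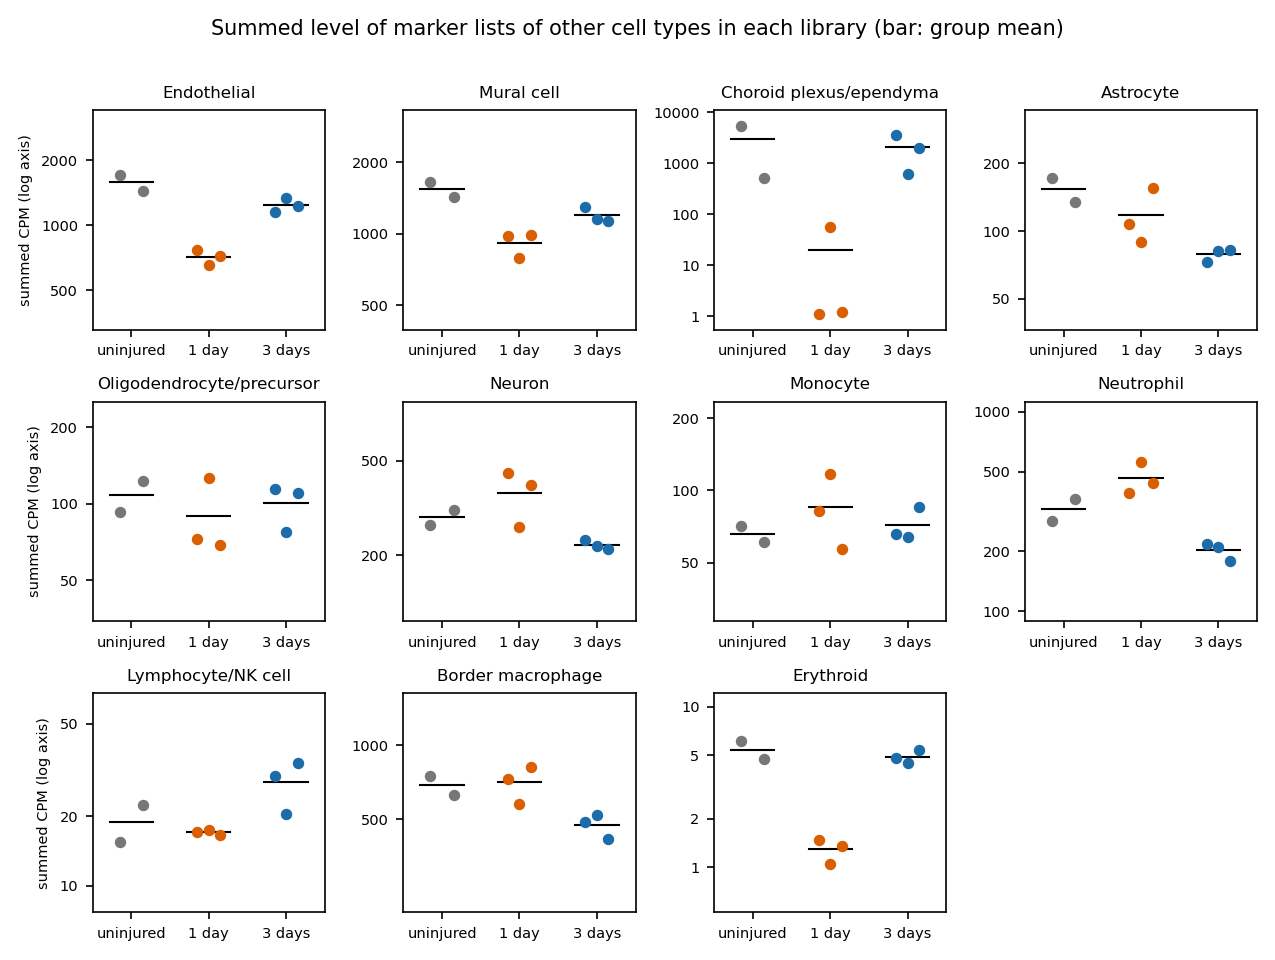
Summed level of the markers of each other cell type in each of the 8 libraries (CPM, log scale, 1 point a library, with a bar at the group mean). Choroid plexus markers range from about 1 CPM in a pair of 1 day libraries to 5486 CPM in uninjured replicate 1, and endothelial markers are lowest at 1 day.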

How the data were processed

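RNA was measured in CD11b bead-selected cells of the LGN in 8 libraries, namely 2 uninjured, 3 at 1 day and 3 at 3 days after crush. The values are raw counts of reads per gene, deposited by the authors in 1 table without normalization; per the labels' protocols RNA was column-purified and linearly amplified, and per the submitters' processing notes the tools were FastQC, STAR and HTSeq and the build mm9. The version of each tool, the gene annotation used for counting and whether reads were counted by strand were not given in the sources used here, so reads of overlapping or antisense genes cannot be told apart. Columns were matched to samples by their names.

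Genes were kept by edgeR's filterByExpr, scaled by TMM and fitted with edgeR 4.0.16 (robust quasi-likelihood) over all 8 libraries, and 3 days were contrasted with 1 day. Calls are genes with a Benjamini-Hochberg adjusted p under 0.05, and the SE is the log2 fold change divided by the square root of F. Single measures were compared with an exact two-sided permutation test in scipy 1.17.1. In a check on simulated data the share of false calls was above the nominal rate. Most changes were missed at both sizes simulated, and more of the smaller ones. Gene symbols and exon overlaps came from GENCODE M21, promoter windows from RefSeq on GRCm38.p6, where 11420 of the genes tested had 1 or more. Counts of 1 of the times at 0 were replaced by 3 over the group for lower bounds of a fold.

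The named genes are, among called genes whose groups do not overlap, the 12 largest log2 fold changes in each direction with a group mean of 5 CPM or more and the 8 largest differences in mean CPM in each direction, together with up to 4 members of each of 34 lists of biology and 11 lists of markers, by smallest p, and 16 fixed genes. Of the 214 genes these rules give, the text takes up 130, chosen after their values were seen. The members, lists and rules were chosen with earlier results of these data known. Alternatives were DESeq2 1.42.0, limma-voom (limma 3.58.1), other scalings and filters, the 6 injured libraries alone, a replicate block, a test against a 1.5-fold change, a choroid plexus covariate, leaving out mitochondrially encoded genes, and leaving out each library. Libraries of the same number did not deviate together (correlations of −0.03, −0.06 and −0.02), so they were not taken as pairs. No 2 libraries of the same time after crush agreed within sampling noise, and other pairs were not checked.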

Additional observations from a re-analysis of the deposited data

How the results depend on the processing

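None of the 120 called genes recomputed reversed its direction under the alternatives run, while Tnf, C1qa and Trem2, which were not called, changed sign in 1 or more, and medians of lists and counts of calls moved. The median changed sign in 1 or more settings in 12 of 45 lists, among them chemokines (0.18, and −0.17 with the choroid plexus covariate), astrocyte markers (−0.56, and 0.41 in limma-voom) and neuronal markers (−0.26, and 0.19 in limma-voom). DESeq2 called 1392 genes higher and 1456 lower, and without mitochondrially encoded genes the rises outnumbered the falls. In the test against a 1.5-fold change 463 genes were called, 324 higher and 139 lower, so that 70.0% of calls were rises against 47.7% with the test against no change. In that stricter test the falls were 4 in the NF-kB list, 10 immediate early, 2 heat shock, 4 homeostatic, 2 TGF-beta and 0 adhesion, and the rises 7 disease-associated, 2 glycolytic, 4 respiratory, 0 ribosomal, 1 proteasome, 3 adhesion, 2 endothelial and 3 choroid plexus. With the choroid plexus covariate 26 genes were called, 24 higher and 2 lower. There the rises were 11 mitotic, 3 kinetochore, 1 replication, 1 disease-associated and 1 adhesion, and 0 in the G1/S, recombination, glycolytic, respiratory, ribosomal, proteasome, endothelial and choroid plexus lists, and the falls were 0 in the NF-kB, immediate early, heat shock, homeostatic, TGF-beta and adhesion lists. Choroid plexus rises numbered 0 in limma-voom with or without sample weights and 2 without the filter, and ribosomal rises 30 in limma-voom with sample weights. The cause was not tested.

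With each library left out in turn, calls ranged from 746 to 2358, rises from 359 to 1167 and falls from 387 to 1191. The rises ranged from 6 to 10 in the G1/S list, 4 to 8 in glycolysis, 4 to 37 in the respiratory chain, 1 to 34 among ribosomal, 1 to 12 among proteasome, 5 to 7 among endothelial and 2 to 6 among choroid plexus genes, and the falls from 2 to 8 in the heat shock and 5 to 10 in the TGF-beta list. Of the 214 genes that the naming rules give, 130 were taken up in the text and recomputed; 120 of these were called, 94 of them with each library left out and 12 with the covariate. A fit with the replicate number as a block called 1700 genes, 836 higher and 864 lower. What the replicate numbers mean is not stated in the labels. Deviations of same-numbered libraries were not correlated, which cannot settle whether they share a batch. The spread between libraries, a biological coefficient of variation of 51.1%, limits what 3 libraries a time can call.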

Other observations

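By GENCODE M21 gene type, 4 types other than protein-coding genes had negative medians, and in 1 of these the share that fell was above the 5.75% of all genes tested. Of 872 genes marked for experimental support (the type called TEC, mostly single-exon models), 63 fell (7.22%) and 3 rose, with a median log2 fold change of −0.41, and of 704 antisense genes 16 fell (2.27%) and 3 rose, with a median of −0.30. Of 471 long intergenic noncoding genes 21 fell (4.46%) and 6 rose, with a median of −0.14, and of 268 processed transcripts 9 fell (3.36%) and 4 rose, with a median of −0.10. Protein-coding genes were balanced, with 872 up, 858 down and a median of 0.06 over 13599 genes, and processed pseudogenes had 12 up, 11 down and a median of 0.29 over 761. In the same libraries fewer genes had a count at 1 day and mitochondrial genes took a smaller share of the counts; the part of these in the gene-type values was not tested.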
